A study of Mus musculus with 80 samples.

Results

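The ribosome-bound RNA of *Cx3cr1*+ cells was compared with the RNA of the same centrifuged lysate. The brain cell suspensions were made with transcription and translation inhibitors. The comparison rests on 8 of the 80 samples of the series, chosen by their library titles: the 4 TRAP and 4 Input libraries of mice 156, 157, 1361 and 1362 whose suspension was prepared with inhibitors on the Octo dissociator, paired by mouse, over all genes of the table. All were Cx3cr1-NuTRAP mice (Cx3cr1(Jung)-cre/Ert2+;NuTRAP+), of both sexes, which received tamoxifen at 100 mg/kg by daily intraperitoneal injection at about 3 months and were killed at 5 to 8 months. Brain was dissociated with papain and by machine with actinomycin D and triptolide, which block transcription, and anisomycin, which blocks translation, and myelin debris was then removed. The lysis buffer held cycloheximide in every group. TRAP (translating ribosome affinity purification) pulls down the eGFP-tagged ribosomal protein L10a with an antibody against GFP, and Input is an aliquot of the centrifuged lysate saved before the pull-down. The comparison asks which RNAs the pull-down holds more or less of than the lysate it came from. Comparison groups were the suspension of the same 4 mice made without inhibitors, and directly homogenised tissue from 4 other mice (946, 947, 948 and 949) of the same genotype. The cre stands in the *Cx3cr1* gene, so every mouse had 1 *Cx3cr1* allele replaced. The tag is placed in any cell that expressed *Cx3cr1* at the time of tamoxifen, which includes macrophages at the borders of the brain as well as microglia. No animals were pooled.

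Microglia are the resident macrophages of the brain parenchyma. They depend on signals through the CSF1 receptor, sense ATP and fractalkine through P2RY12 and CX3CR1, and carry a homeostatic program that includes *Tmem119* and *Sall1*. Tissue dissociation is known to induce immediate-early genes such as *Fos*, *Jun* and *Egr1* in these cells within minutes, which is why inhibitors are added. A suspension of whole brain also holds oligodendrocytes with their myelin RNA, astrocytes, endothelial and mural cells, ependyma and choroid plexus, red blood cells, and a few neurons, whose long processes survive dissociation poorly.

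Total counts ran from 10510090 to 11262727 in Input and from 11415171 to 12620656 in TRAP. After scaling by TMM (trimmed mean of M values), levels are given in CPM, the usual count relative to the scaled library size. Log2 CPM correlated at 0.980 to 0.991 across genes between TRAP libraries, and at 0.958 to 0.965 between the Input of mouse 1362 and the other Input libraries, which correlated at 0.980 to 0.984 with each other. The Input of mouse 1362 stood apart. Its summed level of the study's microglial markers was 56630 CPM, against 43590, 41950 and 41450 in mice 156, 157 and 1361, and its summed ependymal and choroid plexus level was 2909 CPM against 11560, 8303 and 8081. Counts are also given without this mouse.

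TRAP held microglial and macrophage RNA at a nearly uniform multiple of its Input level and far less RNA of most other brain cell types. A gene was called at an FDR under 0.1 (edgeR quasi-likelihood test with mouse as block, Benjamini-Hochberg) and a fold change above 2, the study's thresholds. Of 14705 genes tested, 2315 (15.7%) were higher in TRAP and 4525 (30.8%) were lower, 6840 (46.5%) in all, and 6757 of the 6840 moved in 1 direction in all 4 mice. The 4 TRAP libraries all lay above the 4 Input libraries for 5408 genes (36.8%) and all below for 5475 (37.2%). Without mouse 1362 the calls were 2422 higher and 4557 lower. The share of the calls that were higher was 33.8%, and 20% (1357 higher, 5444 lower) when libraries were scaled by their totals in place of TMM, a scaling that moved the median of all genes by -0.42. With TMM the middle of the 14705 log2 fold changes was -0.0045, so the values below are relative to the middle gene. Both fractions of a mouse come from 1 lysate, so a fold change is in the share of RNA and not in cells. Between preparations, fewer cells of a type and less RNA per cell cannot be told apart in bulk RNA.

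**Figure D1:**
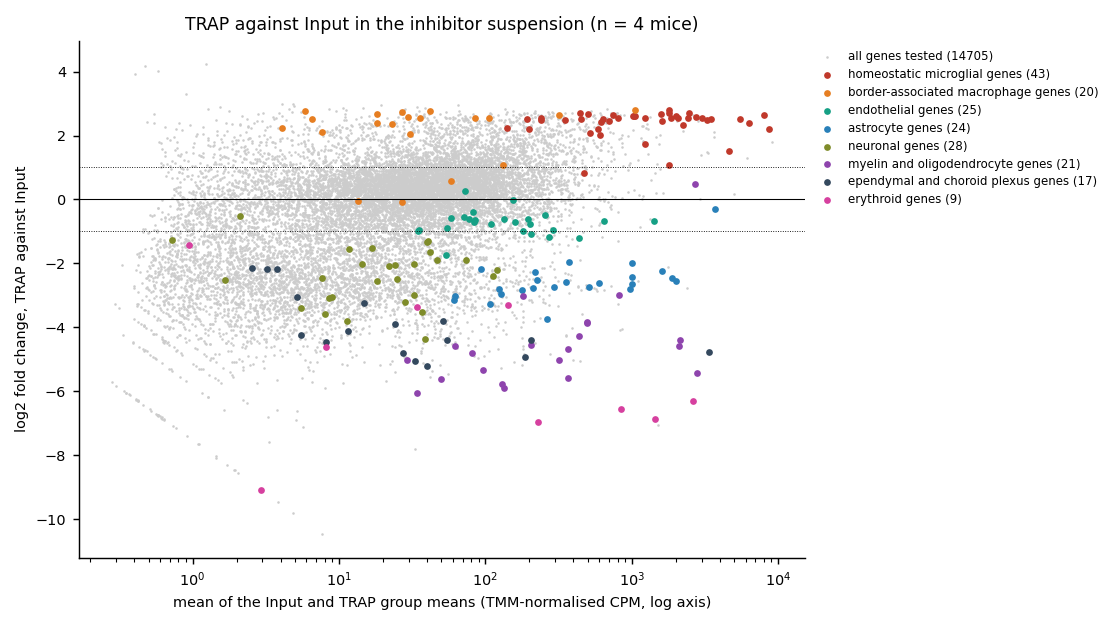
Each point is a gene; the x axis is the mean of the Input and TRAP group means in CPM on a log axis, the y axis is the log2 fold change of TRAP against Input (4 mice), grey points are all 14705 genes tested and coloured points are members of 8 gene lists. Most microglial and border macrophage genes lie in a flat band near 2.5 whatever their level, most endothelial genes lie between 0 and -1, and most members of the other lists lie between -1 and -7.

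The microglial genes rose together. *Tmem119*, a microglial surface protein (Entrez ID 231633, mm10 chromosome 5, 113793729 to 113800352, minus strand), measured 552, 504, 559 and 624 CPM in the Input of mice 156, 157, 1361 and 1362, and 3586, 3612, 3659 and 2895 CPM in their TRAP. All 4 TRAP libraries lay far above all 4 Input libraries, and the smallest rise was in mouse 1362, whose TRAP was lowest. The log2 fold change was 2.62 ± 0.11 (SE, n = 4, edgeR FDR 1.4e-09), or 6.13-fold. *Csf1r*, the receptor that microglia need to survive, measured 1972, 2015, 1999 and 3053 CPM in Input and 13030, 13740, 13870 and 14450 CPM in TRAP. Its groups did not overlap either, and mouse 1362 again had the highest Input. The log2 fold change was 2.63 ± 0.12 (FDR 1.8e-09). *Cx3cr1*, the fractalkine receptor whose locus carries the cre, rose from 612 ± 161 to 3536 ± 179 CPM (SD, n = 4), by 2.56 on the log2 scale. The purinergic receptor *P2ry12* (2.55), the CD11b gene *Itgam* (2.79) and the CD45 gene *Ptprc* (2.21) rose as well.

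Of 282 microglial markers on the study's list, 274 were higher in TRAP and 0 were lower, with a median of 2.44 (5.41-fold) and an interquartile range of 2.14 to 2.56. The study took its marker lists from published work and did not choose them on these libraries. A work the paper cites for them used the same NuTRAP model, and its part in these counts was not tested. Their summed level was 41450 to 56630 CPM in Input and 232700 to 240900 CPM in TRAP. The median per mouse was 2.48, 2.54, 2.55 and 2.03 in mice 156, 157, 1361 and 1362. Mouse 1362, with the most microglial RNA in its Input, had the smallest change, while TRAP levels were alike in all 4 mice. The 8 uncalled members, named after their values were seen, were *Ucp2* (0.96), *Ccr2* (0.89), *Gm14023* (0.40), *Nfkbia* (0.37), *Rbm47* (0.34), *Sgk1* (-0.48), *Ier3* (-0.49) and *Gdf15* (-0.76). Of the 43 homeostatic microglial genes, 42 were higher, with a median of 2.52 and values up to 2.79, and the growth factor *Gas6* (0.81) was not called. Of 19 microglial transcription factors tested, 18 were higher (median 2.17). They included *Sfpi1*, the gene of PU.1, a master regulator of the myeloid lineage, with 73.6, 68.8, 71.5 and 102 CPM in Input and 477, 529.8, 516 and 496 CPM in TRAP (2.69 ± 0.11, FDR 1.1e-09). No library of one fraction reached the other. *Cebpa* (2.56) rose as well, and *Arid5b* (-0.24) was not called.

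The rises ended at a common size and the falls reached further. Among genes called higher with a mean of at least 10 CPM in TRAP, the largest log2 fold change was 2.96, and 2 genes exceeded 2.9, whereas 198 genes with at least 10 CPM in Input fell by over 4 on the same scale. The largest rises were *Ugt1a7c* (2.96), *Tmem8c* (2.95), *H2-Oa* (2.89), *Spns3* (2.87), *Alox5* (2.86), *Msr1* (2.86), *Fam26f* (2.84), *Spint1* (2.82), *Lag3* (2.82) and *Cgn* (2.82). Among them, *Alox5* makes leukotrienes, *Msr1* is a macrophage scavenger receptor, *H2-Oa* is an MHC class II chaperone and *Lag3* is an immune checkpoint receptor. *Lag3* measured 166, 147, 171 and 191 CPM in Input and 1284, 1130, 1350 and 1012 CPM in TRAP. *Ugt1a7c* measured 11.1, 12.9, 9.99 and 20.7 CPM in Input and 81.3, 73.3, 70.9 and 237 CPM in TRAP. Its TRAP level in mouse 1362 lay far above the other 3, and it lies in a cluster of UGT1A genes that share exons, so its value is uncertain.

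Immune receptor, antigen presentation and lysosomal genes followed the microglial genes. Of 18 Toll-like receptor and adaptor genes, 16 were higher (median 2.34), led by *Cd14* (2.78), *Tlr13* (2.68) and *Tlr9* (2.65), and the adaptor *Tirap* (0.68) and *Tlr3* (0.92), a receptor of double-stranded RNA, were not called. Of 29 lysosomal genes, 26 were higher (median 1.91), such as *Cd68* (2.70), *Man2b1* (2.67) and *Ctss* (2.51), and the smallest called rise was that of *Lamp1* (1.01). Of 14 MHC presentation genes, 13 were higher (median 1.54), with *H2-DMb1* (2.23) and the immunoproteasome subunits *Psmb8* (2.12) and *Psmb9* (2.07) first, the smallest called rise being that of the invariant chain *Cd74* (1.21). Of 18 complement genes, 11 were higher and 4 were lower (median 1.70). The C1q genes *C1qa* (2.53), *C1qb* (2.47) and *C1qc* (2.58) and the receptors *Itgam* and *Itgb2* (2.70) rose, while the C1 inhibitor *Serping1* (-3.26), *Cd59a* (-2.40), *Cd55* (-2.16) and the protease gene *C1s* (-1.73) fell. *C1ra* (0.91) and *C3* (0.74) were not called.

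Of 20 disease-associated microglial genes, 13 were higher (median 1.84), such as *Itgax* (2.37), *Lyz2* (2.36) and *Cst7* (2.29), and 1 was lower. That gene was *Fth1*, the ferritin heavy chain (Entrez ID 14319, mm10 chromosome 19, 9982646 to 9985111, plus strand), with 3427, 2636, 3106 and 2408 CPM in Input and 621, 661, 606 and 762 CPM in TRAP (-2.12 ± 0.13, FDR 2.1e-08). Every TRAP library lay below every Input library. *Apoe* (0.18), a lipid carrier that astrocytes also make, was not called. Of 26 cytokine and chemokine genes tested, 15 were higher and 4 were lower (median 1.96). The B cell survival factor *Tnfsf13b* (2.55), *Tgfb1* (2.37), *Ccl6* (2.36), *Ccl4* (2.35), *Ccl3* (2.22), *Il1a* (2.08) and *Tnf* (2.01) rose. *Ccl3* measured 3.30, 2.77, 1.90 and 5.84 CPM in Input and 16.7, 12.1, 11.7 and 21.8 CPM in TRAP, and the groups did not overlap. *Il1b* measured 2.67, 2.85, 2.56 and 3.58 CPM in Input and 1.88, 2.86, 3.66 and 6.49 CPM in TRAP, and its libraries overlapped (0.26 ± 0.32, FDR 0.47). Its sign turned to -0.16 when libraries were scaled by their totals. *Cxcl14* (-2.80), the fractalkine gene *Cx3cl1* (-1.40), which neurons make, and *Cxcl12* (-1.13) fell. *Lif* (-2.89 ± 0.81) was also called lower, from only 46 counts over the 4 Input libraries and 5 over the 4 TRAP libraries. Of 20 interferon-stimulated genes, 6 were higher, with *Trim30a* (2.01), *Bst2* (1.61) and *Oas1a* (1.52) among them, and *Rsad2* (-1.35) was lower, with a median of 0.29 that turned to -0.12 with library totals.

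Macrophages of the brain's borders carry the same tag, and their genes had a median rise close to that of the microglial genes. Of 20 border-associated macrophage genes, 17 were higher (median 2.53), and their summed level was 567 to 859.9 CPM in Input and 3119 to 3728 CPM in TRAP. *Mrc1*, the mannose receptor (Entrez ID 17533, mm10 chromosome 2, 14229414 to 14332023, plus strand), measured 80.3, 92.1, 60.8 and 127 CPM in Input and 505, 596, 460.4 and 630.5 CPM in TRAP. TRAP was above Input in each mouse with no overlap (2.64 ± 0.10, FDR 7.6e-10). *Stab1* (2.79), *Ccl24* (2.76), *Lyve1* (2.76) and *Cd163* (2.54) rose with it. All 7 defining border macrophage markers and all 8 defining microglial markers were called higher, the latter with a summed level of 6123 to 9139 CPM in Input and 38990 to 40790 CPM in TRAP.

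Genes of white blood cells did not move together. Of 18 monocyte and neutrophil genes tested, 14 were lower and 1 was higher (median -3.77), and 6 had no count in any TRAP library. Most of those that fell had few counts in TRAP and were tested through their Input level, so the count and the median describe these members and not the cell type. *S100a9*, a calgranulin of neutrophils (Entrez ID 20202, mm10 chromosome 3, 90692633 to 90695691, minus strand), measured 34.7, 11.2, 7.02 and 8.42 CPM in Input and 0 in every TRAP library. Mouse 156 had the highest Input. With a floor of 3 counts over the 4 TRAP libraries (0.0717 CPM), *S100a9* was at least 214-fold lower in TRAP. *S100a8* and *Ngp* were also at 0 in all TRAP libraries. The median is the same with genes at 0 set to that bound. The exception was *Csf3r*, the receptor of granulocyte colony-stimulating factor, with 103, 93.1, 108 and 135 CPM in Input and 521, 523, 625 and 498 CPM in TRAP (2.31 ± 0.11, FDR 2.7e-09), which turns the list's sum upward (333 to 461 CPM in Input, 614 to 751 CPM in TRAP) against its median. *Ccr2*, the chemokine receptor of monocytes, measured 5.42, 7.25, 4.63 and 4.83 CPM in Input and 9.10, 10.8, 11.8 and 8.97 CPM in TRAP, a difference of 0.89 ± 0.20 that was under the fold threshold (FDR 0.0015).

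Of 14 lymphocyte genes tested, 11 were lower and 3 were higher (median -3.56). As with the monocyte list, genes could enter the test through their Input level alone. The count and the median therefore describe these members and not the cell type. The T cell receptor complex genes *Cd3g*, *Cd3e* and *Cd3d* and the B cell genes *Cd79a* and *Ms4a1* were among those that fell. *Bank1* (2.64), *Cd79b* (1.85) and *Cd4* (1.73) rose, and the list's sum (39.7 to 46.2 CPM in Input, 94.6 to 102 CPM in TRAP) went against the median. *Bank1* measured 8.41, 7.74, 7.52 and 13.7 CPM in Input and 56.5, 55.01, 63.9 and 54.2 CPM in TRAP, with no overlap. *Cd79b* measured 9.98, 6.03, 7.19 and 9.04 CPM in Input and 24.6, 28.9, 25.9 and 36.8 CPM in TRAP. With at least 10 counts required in every library, which leaves fewer members, the medians became 0.034 for monocyte and neutrophil genes and 1.85 for lymphocyte genes. All 9 erythroid genes fell (median -6.28). The alpha globin gene *Hba-a1* (Entrez ID 15122, mm10 chromosome 11, 32283672 to 32284486, plus strand) measured 8799, 4999, 3448 and 3585 CPM in Input and 113, 61.4, 44.3 and 48.1 CPM in TRAP. The ratio was nearly constant over the 4 mice although their Input levels differed by more than 2-fold (-6.28 ± 0.10, FDR 7.5e-12). Globin genes have near-identical copies, so how reads were split between *Hba-a1* and *Hba-a2* (-6.53), or *Hbb-b1* (-7.03) and the adult beta globin *Beta-s* (-6.86), is uncertain. *Alas2*, the erythroid enzyme that starts haem synthesis, fell by 6.97 on the log2 scale.

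**Figure D2:**
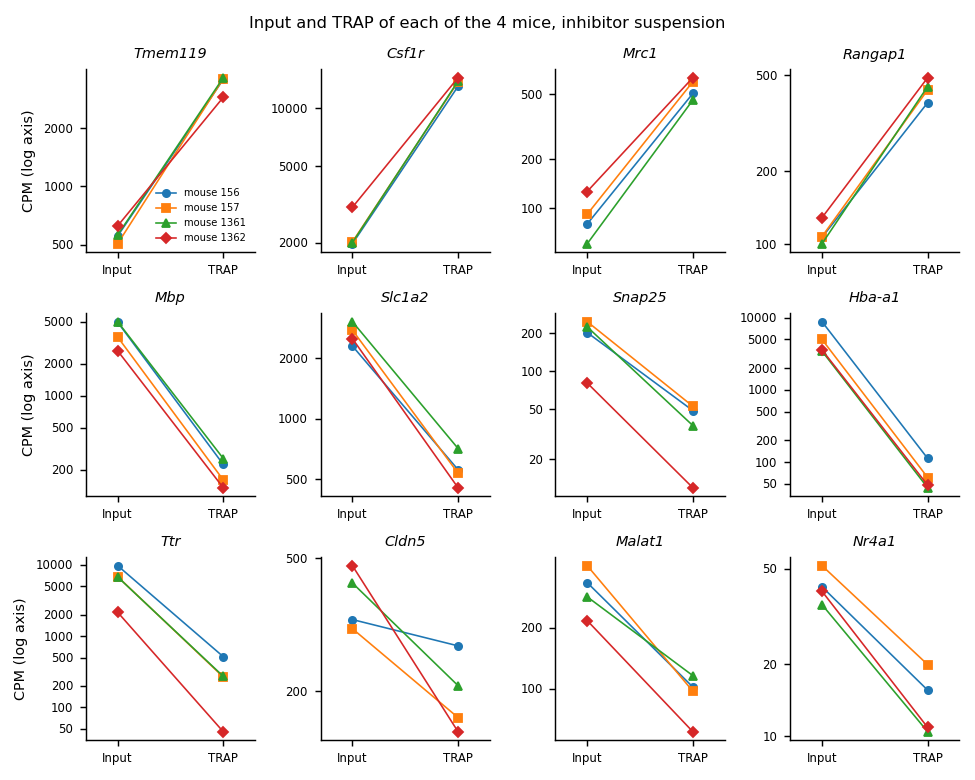
CPM on a log axis in the Input and TRAP libraries of each of the 4 mice (1 line a mouse) for 12 genes. Lines rise for Tmem119, Csf1r, Mrc1 and Rangap1 and fall for the rest. Mouse 1362 (red) starts highest for Csf1r and Mrc1 and lowest for Snap25 and Ttr.

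Oligodendrocyte genes were far lower in TRAP. *Mbp*, the gene of myelin basic protein, measured 4979, 3606, 5032 and 2670 CPM in Input and 224, 159.6, 255 and 135 CPM in TRAP. Every TRAP library was below every Input library, and the fold was 21.1 (-4.40 ± 0.09, FDR 2.3e-11). Of 21 myelin and oligodendrocyte genes, 20 were lower (median -4.67), among them *Opalin* (-6.05), *Ermn* (-5.90) and *Mog* (-5.77), and the transferrin gene *Trf* (0.47) was not called. All 14 oligodendrocyte progenitor genes fell (median -3.61), among them *Bcas1* (-4.73) and the lineage factors *Olig1* (-4.50) and *Olig2* (-4.34), and *Cspg4* (-1.88), the gene of NG2, fell least. On the study's oligodendrocytic list, 176 of 194 were lower and 3, *Sema4d* (1.57), *Dock10* (1.48) and *Cd82* (1.00), were higher (median -3.73), and the summed level was 43610 to 56260 CPM in Input and 6427 to 7419 CPM in TRAP. *Klk6*, an oligodendrocyte protease, was among the largest falls of all genes, from 65.6 ± 9.08 CPM to 0.293 ± 0.232 CPM.

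Of 24 astrocyte genes, 23 were lower (median -2.63), and the glutamine synthetase gene *Glul* (-0.30) was not called. *Slc1a2*, the main glutamate transporter of astrocytes (Entrez ID 20511, mm10 chromosome 2, 102658683 to 102790784, plus strand), measured 2297, 2755, 3033 and 2499 CPM in Input and 558, 537, 712 and 454 CPM in TRAP. The groups were well apart (-2.24 ± 0.10, FDR 1.6e-09). The glycolytic enzyme *Aldoc* (-2.41) and the water channel *Aqp4* (-2.77) fell too. Of the study's 138 astrocytic markers, 132 were lower and 1 was higher (median -2.54). The exception was *Abcd2* (1.45), a peroxisomal fatty acid transporter. Of the 24 astrocyte genes above, *S100b* (-3.72), *Gfap* (-3.27) and *Sox9* (-3.13) fell most.

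Of 28 neuronal genes, 26 were lower (median -2.30), with 86 of 94 tested on the study's list lower and 0 higher (median -2.12). The deepest falls among the 28 were those of *Nrgn* (-4.37), which binds calmodulin, and the calcium-binding *Pvalb* (-3.79) and *Calb1* (-3.59). *Snap25*, a synaptic vesicle fusion protein (Entrez ID 20614, mm10 chromosome 2, 136713450 to 136782428, plus strand), measured 203, 248, 226 and 80.8 CPM in Input and 48.7, 52.7, 36.98 and 11.8 CPM in TRAP (-2.39 ± 0.11, FDR 2.6e-09). Both fractions of mouse 1362 were lowest, and its Input still lay above every TRAP library. Summed over the 28 genes, Input held 749 to 1861 CPM and TRAP 139.7 to 403 CPM. All 17 ependymal and choroid plexus genes fell (median -4.22), from the choroid plexus folate receptor *Folr1* (-5.20) and the channel subunit *Kcne2* (-5.05) to the ciliary *Dnahc5* (-2.14). The thyroxine carrier *Ttr* measured 9813, 6879, 6815 and 2175 CPM in Input and 515, 267, 273 and 45.5 CPM in TRAP, and the lowest Input and TRAP values were both those of mouse 1362. Of 14 pericyte and smooth muscle genes tested, 13 were lower (median -2.09), with *Vtn* (-2.36) and the PDGF receptor *Pdgfrb* (-2.29) among them. Of 12 fibroblast genes 11 were lower (median -3.27), such as the growth factor gene *Igf2* (-4.54) and *Ogn* (-3.55).

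Endothelial genes were the exception among the other cell types. Of 25 endothelial genes, 4 were lower and 0 were higher (median -0.70), with *Mfsd2a* (-1.74), *Pltp* (-1.19), *Slco1c1* (-1.19) and *Itm2a* (-1.08) called. *Cldn5*, the tight junction protein of the blood-brain barrier (Entrez ID 12741, mm10 chromosome 16, 18776847 to 18778262, plus strand), measured 328, 308, 422 and 475 CPM in Input and 274, 167, 208 and 152 CPM in TRAP. TRAP lay below Input in every mouse, but by little in mouse 156 (-0.95 ± 0.16, FDR 0.00022), which was under the fold threshold and passed it with DESeq2 size factors (-1.03), library totals (-1.37) or without mouse 156 (-1.19). *Pecam1* (-0.02) and *Flt1* (-0.48) differed less. None of the 4 defining endothelial markers was called, and their summed level was 727 to 1179 CPM in Input and 499.7 to 752 CPM in TRAP. By contrast, all 6 defining markers of astrocytes, of oligodendrocytes and of neurons were called lower, and none was at 0 in TRAP. The endothelial median per mouse ran from -0.23 in mouse 156 through -0.56 and -0.75 to -1.37 in mouse 1362. Of the study's 235 endothelial markers, 91 (38.7%) were lower and 18 (7.66%) were higher (median -0.80), not far from the shares of all genes. The summed levels of the fractions overlapped (16150 to 23110 CPM in Input, 15640 to 18930 CPM in TRAP). The endothelial markers that rose most were *Tgfbr2* (2.02), a TGF-beta receptor that is also on the homeostatic microglial list, the kinase regulator *Pik3r6* (1.98) and *Arap3* (1.88), and *Csrp2* (-3.04), *Anxa1* (-2.69) and *Stra6* (-2.43) were among those that fell.

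**Figure D3:**
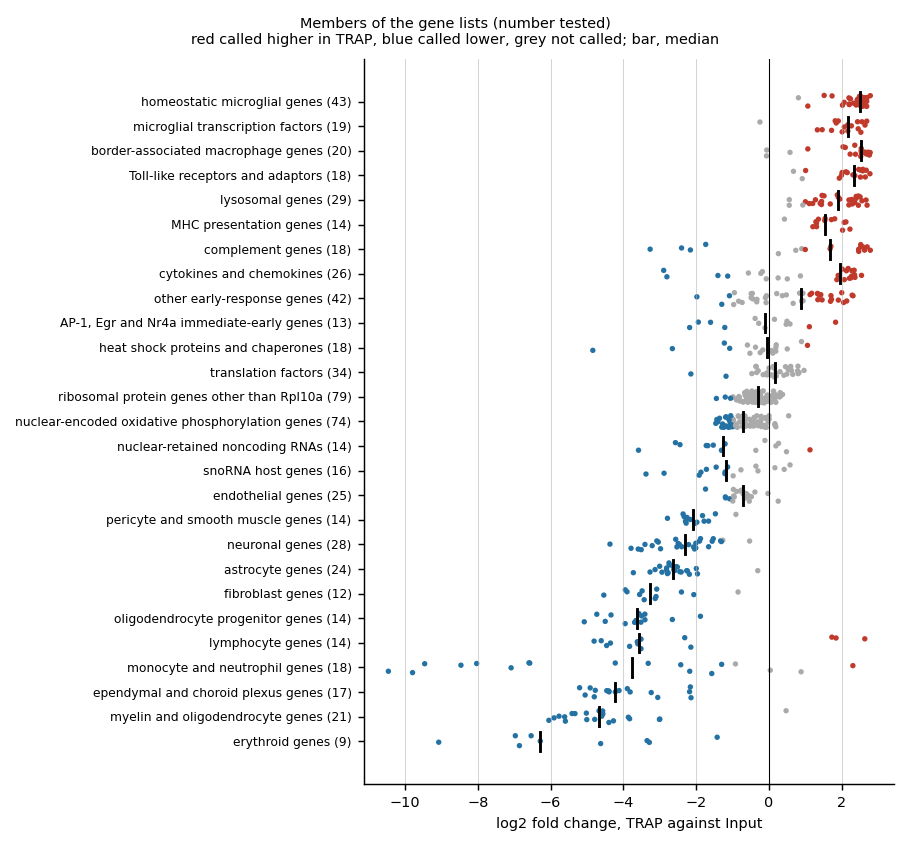
The log2 fold change of TRAP against Input (x axis) of each tested member of 27 gene lists, with the number tested in brackets; red points were called higher, blue lower and grey were not called, and black bars are list medians; values of genes with no TRAP count depend on the fit's prior count. The microglial and macrophage lists sit near 2.5, the stress, translation and ribosomal lists around 0, endothelial genes at -0.70, and the lists of other cell types between -2.09 and -6.28.

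The largest falls of all, by the naming rule, were *S100a9*, *Klk6*, *Serpind1*, *Hbb-b1*, *Alas2*, *S100a5*, *Beta-s*, *Nfe2l3*, *Hba-a2* and *Hba-a1*. *Serpind1* had 565 counts in the 4 Input libraries and 3 in the 4 TRAP libraries, a ratio of 158 (exact 95% interval 53.7 to 768), and *S100a5* had 500 and 3, a ratio of 140 (47.5 to 680). These intervals cover counting error only.

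RNAs that stay in the nucleus, or that are little translated, tended to fall. Of 14 nuclear-retained noncoding RNAs tested, 8 were lower and 1, *Airn* (1.13), was higher (median -1.25). *Malat1*, a long noncoding RNA of nuclear speckles (Entrez ID 72289, mm10 chromosome 19, 5795690 to 5802671, minus strand), measured 335, 406, 285 and 218 CPM in Input and 102, 97.5, 116 and 61.5 CPM in TRAP. Input was above TRAP throughout (-1.72 ± 0.11, FDR 3.8e-08). *Neat1* (-2.57), *Miat* (-2.44) and *Rian* (-3.58) also fell. Several of these RNAs are made by other cell types that were depleted, and the part of cell type in their fall was not tested. Input was taken after the lysate was centrifuged, so it need not hold all RNA of the nuclei. *Xist*, the RNA of the inactive X chromosome, measured 3.54, 1.303, 26.6 and 39.2 CPM in Input and 0, 0.51, 23.5 and 13.1 CPM in TRAP. It was high in mice 1361 and 1362, recorded as female, and low in mice 156 and 157, recorded as male. Its change (-1.20 ± 0.40, FDR 0.015) was called, and the call was lost without mouse 156, without mouse 1362 and without the mouse block. Of 16 snoRNA host genes, which carry small nucleolar RNAs in their introns and whose spliced RNA is short-lived, 9 were lower and 0 higher (median -1.17), such as *Gas5* (-1.87), *Snhg8* (-1.72) and *1500012F01Rik* (-1.21). Over the whole table, 268 of 548 noncoding RNAs typed as miscRNA were lower (48.9%) and 43 were higher (median -0.95), against 4228 of 14045 protein-coding genes lower (30.1%) and 2261 higher (median 0.025).

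Genes of the translation machinery changed little. Of 79 ribosomal protein genes other than *Rpl10a*, 3 were lower, *Rpl22l1* (-1.44), *Rpl41* (-1.20) and *Rps24* (-1.05), and 0 were higher (median -0.30). Of 34 translation factors, 2 were lower, *Eef1a2* (-2.14), the elongation factor of neurons and muscle, and *Tpt1* (-1.18), and 0 were higher (median 0.17, or -0.25 with library totals). Of 74 nuclear-encoded oxidative phosphorylation genes, 21 (28.4%) were lower, near the 30.8% of all genes tested, and 0 were higher (median -0.70). *Uqcr10* (-1.46), *Ndufc1* (-1.43) and *Cox6c* (-1.40) fell most. The 2 genes whose sequence is part of the NuTRAP tag stood apart from these lists. *Rpl10a*, the ribosomal protein that carries eGFP (Entrez ID 19896, mm10 chromosome 17, 28328471 to 28331033, plus strand), measured 158, 158, 153 and 184 CPM in Input and 344, 355, 335 and 373 CPM in TRAP (1.11 ± 0.07, FDR 3.8e-08). *Rangap1*, whose sequence anchors the nuclear tag (Entrez ID 19387, mm10 chromosome 15, 81704248 to 81729919, minus strand), measured 106, 107, 100.2 and 128 CPM in Input and 385, 435, 449 and 489 CPM in TRAP (1.99 ± 0.08, FDR 1e-09). Both were higher in TRAP in all 4 mice with no overlap, and *Rpl10a* fell under the fold threshold with library totals (0.69). Reads from the endogenous genes and from the tag cannot be told apart. Of 17 cell cycle genes tested, 5 (29.4%) were higher and 2 (11.8%) were lower, beside 15.7% and 30.8% of all genes tested. *Mcm3* (2.11) led the rises, *Ube2c* (-1.42) and *Rrm2* (-1.10) fell, and the proliferation marker *Mki67* (0.45) was not called.

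Immediate-early genes did not move with the microglial genes when inhibitors were present. Of 13 AP-1, Egr and Nr4a genes, 2 (15.4%) were higher and 4 (30.8%) were lower (median -0.11). These shares were near those of all genes tested, 15.7% higher and 30.8% lower. The orphan nuclear receptor *Nr4a1* (Entrez ID 15370, mm10 chromosome 15, 101266846 to 101274794, plus strand) measured 42.05, 51.5, 35.4 and 40.3 CPM in Input and 15.6, 19.9, 10.4 and 10.9 CPM in TRAP. Input was above TRAP in each mouse with no overlap (-1.60 ± 0.12, FDR 1.1e-07). Its relatives *Nr4a2* (-1.94) and *Nr4a3* (-2.18) and the zinc finger factor *Egr3* (-1.21) fell too. *Fos* measured 10.4, 14.1, 13.6 and 18 CPM in Input and 19.4, 24.9, 14.1 and 26.1 CPM in TRAP, and its libraries overlapped (0.58 ± 0.15, FDR 0.0037). *Jun* (0.50), *Egr1* (-0.11) and *Egr2* (0.48) were not called, while *Junb* (1.84) and *Atf3* (1.11, or 0.70 with library totals) rose. *Junb* measured 31.8, 38.3, 37.6 and 42.1 CPM in Input and 133, 142, 137 and 122 CPM in TRAP, with no overlap. Of 42 other early-response genes, 17 (40.5%) were higher and 3 (7.14%) were lower (median 0.87). The signalling regulators *Rgs2* (2.31) and *Rgs1* (2.29) and the NF-kappaB inhibitor *Nfkbid* (2.14) rose, and *Id2* (-1.98), *Plk2* (-1.29) and *Gadd45b* (-1.08) fell. *Dusp1*, a phosphatase of MAP kinases, measured 39.3, 53.8, 55.01 and 61.1 CPM in Input and 39.4, 59.7, 40.8 and 56.9 CPM in TRAP, which overlapped (-0.09 ± 0.10, FDR 0.4). Of 18 heat shock genes, 4 (22.2%) were lower and 1 (5.56%) was higher (median -0.05), both under the shares of all genes tested. The small chaperone *Cryab* (-4.84), which oligodendrocytes and astrocytes also make, fell most, and the endoplasmic reticulum chaperone *Hsp90b1* (1.06) rose, a call lost with DESeq2 size factors (0.99).

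Without inhibitors, 10 of the 13 AP-1, Egr and Nr4a genes were higher in TRAP and 2 were lower by the joint fit of both suspensions, beside 18.8% higher and 30.8% lower (49.6% either way) of the 14636 genes tested in a fit of that suspension alone. The interaction tested the TRAP against Input difference with inhibitors minus that without, in libraries of the same 4 mice. Mouse within preparation was the block, so the suspensions of a mouse were not paired with each other. CPM in this and the next comparison are on the scale of their own fits. Of 14930 genes tested, 51 (0.342%) had a lower log2 TRAP against Input value with inhibitors and 2 (0.0134%) a higher one, 0.355% in all. The values are signed, so a lower one can be a smaller rise or a deeper fall. The erythroid median was -6.23 with inhibitors and -4.85 without. The 51 became 33, 31 and 28 without mice 157, 1361 and 1362, and 33 without the mouse block. Of the 13 AP-1, Egr and Nr4a genes, 9 were among the 51, as were 13 of 42 other early-response genes, 2 of 18 heat shock genes, 3 of 9 erythroid genes and 1 of 29 cytokines, and 0 of 43 homeostatic microglial genes. The median of the 13 genes was -0.05 with inhibitors and 2.02 without, beside 2.57 and 2.63 for the homeostatic microglial genes.

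*Fos* measured 13.6 ± 3.12 CPM in Input and 21.2 ± 5.45 in TRAP with inhibitors (SD, n = 4), and 1019 ± 331 CPM in Input and 5279 ± 1474 in TRAP without. Its log2 TRAP against Input was 0.64 with inhibitors and 2.38 without (difference -1.75 ± 0.17, FDR 0.00016). The levels of both fractions were low with inhibitors, so the interaction compares fractions at levels that differ widely. *Nr4a1* turned from 1.46 without inhibitors to -1.55 with them (difference -3.01 ± 0.23, FDR 2.7e-05), its TRAP level being 507 ± 366 CPM without and 14.2 ± 4.42 CPM with inhibitors. *Egr3* turned sign as well (difference -2.67 ± 0.40, FDR 0.008), a call lost without the mouse block (FDR 0.13). *Dusp1* was -0.04 with inhibitors and 2.40 without (difference -2.44 ± 0.14, FDR 2.4e-06). *Jun* was 0.55 with inhibitors and 2.16 without (difference -1.61 ± 0.15, FDR 9e-05). *Junb*, which rose in both, did not pass the test of the difference (1.89 with inhibitors and 2.25 without, difference -0.36 ± 0.15, FDR 0.4), and neither *Nr4a2* nor *Nr4a3* was called, being lower in TRAP in both suspensions. The factors *Klf2* (-2.23), *Ier2* (-2.19) and *Ier3* (-2.39), the NF-kappaB inhibitor *Nfkbia* (-1.35) and the heat shock gene *Hspa1a* (-2.15) had lower values with inhibitors (differences in brackets). The cytokine *Il1b* (-1.36, FDR 0.077) did so close to the threshold. The 2 genes with a higher value with inhibitors were *Cib2* and the plasma protein gene *Alb*. They kept their call in 1 and 2 of the 4 fits that left out a mouse.

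**Figure D4:**
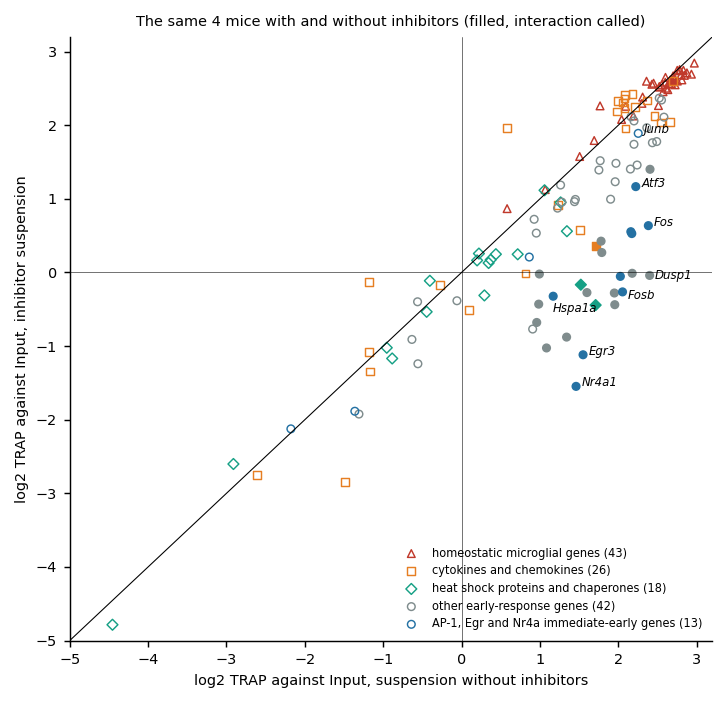
The log2 fold change of TRAP against Input without inhibitors (x axis) and with inhibitors (y axis) in the same 4 mice, for members of 5 gene lists that were tested in the inhibitor suspension; the diagonal marks equal values and filled points were called in the interaction test. Homeostatic microglial genes lie on the diagonal near 2.6 in both, and most AP-1, Egr and Nr4a genes lie below it, with Nr4a1 at 1.46 without and -1.55 with inhibitors.

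In tissue homogenate most homeostatic microglial and border macrophage genes rose more in TRAP, other microglial lists were mixed, and most genes of other brain cell types had higher values than in the suspension. The interaction compared TRAP against Input in the inhibitor suspension with that in tissue. The tissue came from other mice, so preparation and mouse cannot be told apart. The paper also reports read coverage more biased toward the poly(A) end of genes in the tissue libraries than in the suspension libraries. The part of this bias in the calls was not tested. Of 15370 genes tested, 1182 (7.69%) had a higher value in the suspension and 4598 (29.9%) a lower one, 37.6% in all. In tissue alone 8.62% of 14518 genes were higher in TRAP and 3.13% lower (11.8% either way). Of the interaction calls 20.4% were higher in the suspension, and 4.79% (289 higher, 5749 lower) with library totals. *Tmem119* was 2.63 in the suspension and 4.61 in tissue (difference -1.98 ± 0.15, FDR 5.8e-09). Its Input was 579 ± 51.2 CPM in the suspension and 25.7 ± 3.66 CPM in tissue, and its TRAP 3580 ± 376 and 626 ± 31.9 CPM, so both levels were higher in the suspension and the smaller ratio went with the higher Input. The median of the 43 homeostatic microglial genes was 2.53 in the suspension and 4.46 in tissue, with 34 called lower. The 20 border-associated macrophage genes had medians of 2.54 and 4.11, with 14 called lower, and *Mrc1* was 2.65 in the suspension and 3.95 in tissue. The microglial transcription factors had alike medians, 2.18 in the suspension and 2.14 in tissue, and of 19 tested 5 were called higher in the suspension and 6 lower. The median of 29 lysosomal genes was 1.92 in the suspension and 1.64 in tissue, with 0 called higher and 6 lower, and that of 20 disease-associated microglial genes was 1.85 and 1.32, with 2 higher and 6 lower.

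The genes of other brain cell types also had lower TRAP against Input values in the suspension than in tissue, where their medians lay nearer to 0 or above it. Astrocyte genes had a median of -2.62 in the suspension and -0.55 in tissue, with 23 of 24 called lower, and neuronal genes -2.29 and -0.20, with 26 of 28. *Snap25* was -2.39 in the suspension and -0.37 in tissue, from an Input of 196 ± 77.3 CPM and 2856 ± 65.6 CPM. *Slc1a2* fell in TRAP from the suspension and was higher in TRAP than in Input in tissue (-2.23 and 1.06, difference -3.29 ± 0.16, FDR 4.9e-11). *Cldn5* also had opposite signs (-0.94 and 1.35, difference -2.29 ± 0.25, FDR 5.3e-07), and the endothelial median was -0.69 and 1.01, with 22 of 25 called lower. The myelin median was below 0 in both, at -4.66 and -2.03. *Rangap1* rose in the suspension and not in tissue (2.00 and 0.09, difference 1.91 ± 0.11, FDR 2.5e-10), its Input being 114 ± 12.8 and 317 ± 12.7 CPM, while *Rpl10a* was 1.12 in the suspension and 1.00 in tissue and did not pass the test of the difference (difference 0.12 ± 0.10, FDR 0.33). The AP-1, Egr and Nr4a median was -0.10 in the suspension and -0.09 in tissue, with 2 of 13 higher and 4 lower in the interaction.

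**Figure D5:**
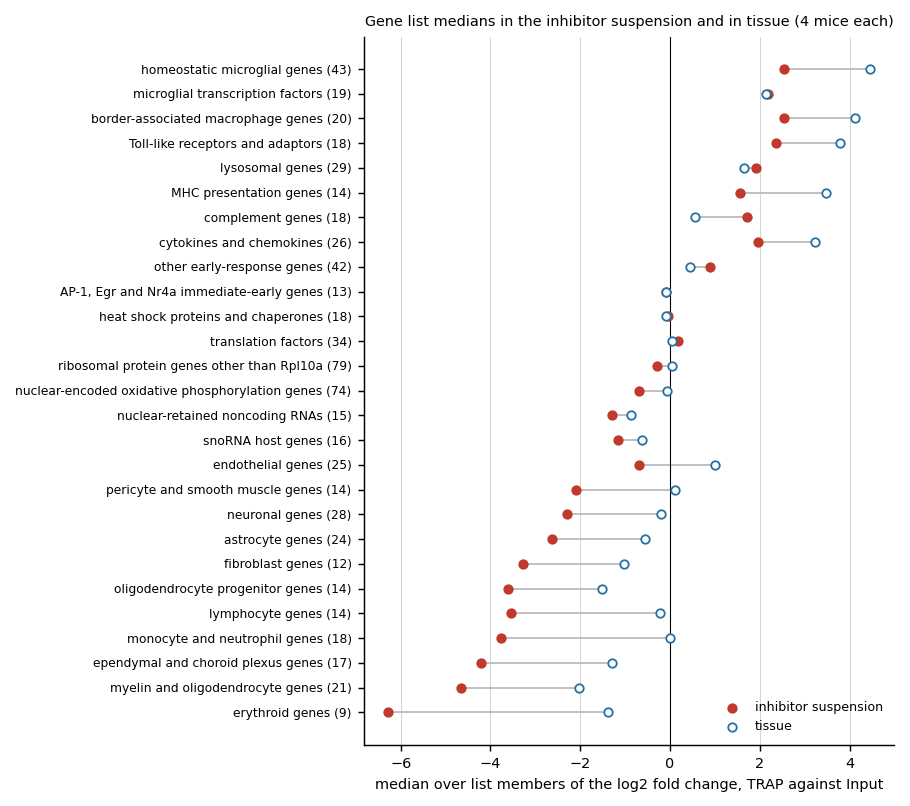
Median over list members of the log2 fold change of TRAP against Input (x axis) in the inhibitor suspension (red) and in tissue (open blue), 4 mice each, with the number of genes tested in brackets. Homeostatic microglial genes are at 2.53 and 4.46, and the endothelial genes change side, at -0.69 and 1.01.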

How the data were processed

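RNA was sequenced from Input and TRAP of each mouse as individual directional poly(A) libraries. The authors aligned reads to mm10 with Strand NGS, removed duplicates and deposited expected counts per gene (20.9% of the values of the 8 libraries lay within 0.001 of a whole number), beside log2 values that the authors normalised with DESeq2 and baselined per gene to tissue Input. Counts were rounded to whole numbers here, and depth is given by library totals of 10510090 to 12620656. Genes needed more than 5 counts in every library of 1 group. Fractions were compared in edgeR 4.0.16 (R 4.3.3) by its quasi-likelihood test, two-sided, after TMM scaling and with mouse as block. Interactions were fitted on 16 libraries with mouse within preparation as block (8 blocks). Standard errors come from these fits. Checks were run on simulated data first.

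Pairing by mouse comes from the labels, since Input and TRAP are fractions of 1 lysate. Deviations from the group means correlated at 0.277 to 0.512 over 10155 genes between the fractions of the same mouse and at -0.381 to 0.181 between those of different mice.

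The gene lists (5 from the study, 31 written for this work; 1500 symbols, 22 matched by Entrez ID and 16 not listed) and the comparison were chosen with earlier results of these data known. Named genes were the 10 largest rises and falls with at least 10 CPM in the higher fraction, for each list the 3 largest called changes and up to 6 in the other direction, a fixed set of 32, and the 10 largest interactions each way; others named were chosen for their known role after their values were seen. Alternatives were DESeq2 1.42.0, limma 3.58.1 on the deposited log2 values, other scalings and filters, an earlier deposited table, and leaving out each mouse. The scaling by library totals was added after the data had been seen. Columns of the authors' own comparisons were not used. Some genes are not reported here.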

Additional observations from a re-analysis of the deposited data

Results flagged for a closer look

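A sample was set apart where its gap to the next of the 4 divided by the range of its group exceeded Dixon's 95% critical value, which chance gives in about 1 in 20 groups. Of 396 groups tested, 40 had such a sample, and in 23 of them it was the Input of mouse 1362 as the highest. Its CPM (with the group median) was 3053 (2007) for *Csf1r*, 853 (540.3) for *Cx3cr1*, 588 (419.8) for *Itgam*, 794 (407) for *Fcrls*, 180.3 (103) for *Cd68*, 102 (72.5) for *Sfpi1*, 169 (134) for *Cebpa*, 544 (395) for *Man2b1*, 188 (127) for *Tgfb1* and 184 (158) for *Rpl10a*. It was 65.7 (45.4) for *Tlr13*, 45.4 (30.2) for *Tlr9*, 66.2 (47.9) for *Psmb8*, 50.7 (25.3) for *Trim30a*, 17.5 (10.7) for *Itgax* and 13.7 (8.07) for *Bank1*. The summed CPM of the same library was highest for the microglial markers of the study (56630), homeostatic microglial genes (32270), microglial transcription factors (2004), MHC presentation (3007), complement (5189), Toll-like receptor (1085) and cell cycle genes (268), and lowest for oxidative phosphorylation genes (7248) and *Cox6c* (83.1).

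The TRAP library of mouse 1362 was highest for *Ugt1a7c* (237 CPM), *Fcrls* (3727), *Hsp90b1* (1357) and *Nfe2l3* (0.382, the other 3 at 0), and lowest for *Tmem119* (2895), *Itgb2* (1159), *Spint1* (179.8) and *Spns3* (15.6). Mouse 156 was highest for *S100a9* in Input (34.7 CPM) and for *Hba-a2* (33.9) and *Cd59a* (13.6) in TRAP, and lowest for *Pik3r6* in Input (7.94). Mouse 157 was lowest for *Cxcl12* in Input (223 CPM) and highest for *Airn* in TRAP (4.29), and mouse 1361 was highest for *A2m* in Input (137 CPM).

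By the edgeR interaction test, the log2 TRAP against Input value was higher with inhibitors than without for 2 genes and lower for 51. The differences on the log2 scale were -3.01 for *Nr4a1*, -2.67 for *Egr3*, -2.62 for *Klk6*, -2.44 for *Dusp1*, -2.39 for *Ier3*, -2.32 for *Fosb*, -2.26 for the linker histone gene *Hist1h1c*, -2.23 for *Klf2*, -2.22 for *Gem* and -2.19 for *Ier2*, and 1.3 for *Cib2* and 1.14 for *Alb*.

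Between the suspension and tissue the log2 TRAP against Input value was higher in the suspension for 1182 genes and lower for 4598. Differences are given as the suspension's value minus that of tissue. The largest were -8.27 for *Ngp*, -6.40 for *Gpr26*, -6.30 for *Fcrl1*, -6.12 for *1110032F04Rik*, -5.97 for *Mlip*, -5.84 for *S100a9*, -5.39 for *Htr1a* and -5.33 for *Tmem200a*, values that depend on the prior count, since *Fcrl1* had no count in tissue Input and the others had none in TRAP of the suspension. *C1ql2* (-5.22) and *Spock1* (-5.19) followed. In the other direction stood the tight junction gene *Cgn* (2.68), *Ano6* (2.64), the interferon-induced *Mx1* (2.59), *Csmd3* (2.48), *Rgs14* (2.46), *U05342* (2.46), *Adamts16* (2.43), the kinase *Ptk2b* (2.38), the calcium channel *Trpm2* (2.36) and *Kcnk12* (2.36). The tissue came from other mice and its libraries had more biased coverage, so preparation, mouse and coverage cannot be told apart in these values.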

How the results depend on the processing

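With mouse left out as a block (no pairing of the fractions), the calls were 2307 higher and 4517 lower for TRAP against Input. They were 1 higher and 33 lower for the interaction with the inhibitors, and 1164 higher and 4642 lower for the interaction with tissue. Leaving out each mouse gave 2273 to 2422 higher and 4456 to 4573 lower genes. It gave 0 to 3 higher and 28 to 41 lower values with inhibitors between the suspensions. Between suspension and tissue it gave 1123 to 1254 higher and 4459 to 4587 lower. With library totals the higher calls fell to 1357 in the suspension and to 289 against tissue. With no fold threshold they were 6094, 100 (beside 90 lower) for the inhibitors, and 4558 against tissue. With at least 10 counts in every library, 2765 of 12102 genes tested were lower in the suspension, beside 4525 of 14705. Against tissue 716 of 11382 were higher and 2591 lower, beside 1182 and 4598 of 15370. These calls dropped by a larger share than the genes tested did, so the shares called depend on the filter. The DESeq2 Wald test gave 4 higher values with inhibitors between the suspensions, with 4632 adjusted p-values left undefined.

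Gene list medians are compared after taking off the shift of all genes, which was -0.415 with library totals. A shift common to all genes therefore does not show in them. With at least 10 counts in every library they became -3.48 (oligodendrocytic markers of the study), -1.99 (neuronal markers of the study), -2.06 (neuronal genes), -0.87 (snoRNA hosts), 0.034 (monocyte and neutrophil genes) and 1.85 (lymphocyte genes), the last 2 with a changed sign as fewer members were tested. Leaving out each mouse gave -2.26 to -2.12 for the neuronal markers of the study, -2.37 to -2.11 for the neuronal genes, -4.43 to -2.95 for monocyte and neutrophil genes, -3.80 to -3.08 for lymphocyte genes and 0.754 to 0.926 for other early-response genes. Of the named genes, *Il1b* changed sign with library totals (-0.161), 60 values lost their call, 6 gained one and 2494 kept direction and call. The causes were not tested. With 4 mice and 10510090 to 12620656 counts a library, genes of few counts in TRAP have folds that depend on the prior count.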

Other observations

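Promoter windows of 250 bases before the start (RefSeq, GRCm38.p6) were searched on both strands for 4 motifs, the PU.1 site GAGGAAGT, the cyclic AMP response element TGACGTCA, the AP-1 site TGANTCA and the serum response element. Of 14 microglial genes, 8 had a window, and 1 of them, *Cd68*, which rose with the microglial genes, held an AP-1 match. Of the 13 AP-1, Egr and Nr4a genes, 11 had a window and 0 held any of the 4 motifs. Only exact strings in short windows were searched, so a lack of matches does not show that such sites are absent. Over all 32851 windows the share was 2.44% for the PU.1 site, 1.55% for the cyclic AMP response element, 6.75% for the AP-1 site and 0.0609% for the serum response element. The *Cd68* matches, shown because they are the only matches found, are on the minus strand, with the AP-1 letters in capitals:
Cd68 chr11:69666301-69666330: taagttccgtgTGAGTCAgctgcctcattc
Cd68 chr11:69666176-69666205: gctgaggtgtcTGAGTCAggtttggggtgg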
